A study of Mus musculus with 12 samples.

Results

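The Zfp genes are the mouse genes named zinc finger protein with a number, most of which encode DNA-binding proteins with arrays of Cys2His2 fingers. They were chosen by symbol and by detection on these same arrays. Of 374 Zfp symbols with a probe on the array, 313 had a probe that the scanner software marked as well above background in every array of some group (3 arrays in each of 4 groups), and the brightest such probe stood for the gene. The mRNA-decay genes Zfp36, Zfp36l1 and Zfp36l2 were left out by the rule, whereas their rodent paralog Zfp36l3 was kept by it. These 313 genes lie among 13283 genes that passed the same detection filter, of 22911 gene symbols on the array.

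Many mouse Zfp proteins carry a KRAB domain, which recruits the corepressor TRIM28 (KAP1) and, through it, histone methyltransferases and HP1 proteins to silence retroelements and imprinted genes. Others act outside that pathway, as sequence-specific activators, as partners of chromatin complexes or as RNA-binding and ribosome-linked proteins. In macrophages, lipopolysaccharide (LPS), a bacterial cell wall component sensed by Toll-like receptor 4, switches on large NF-kappaB-dependent and interferon-dependent gene programmes within hours.

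The arrays carry RNA of macrophages from the abdominal cavity of C57/BL6 mice, either wild type (WT) or lacking the G protein-coupled receptor GPR15 (KO), cultured in DMEM with FBS. The cells of either genotype then received PBS, or 100 ng/ml of LPS, and were left for 4 h. This makes the groups WT PBS, WT LPS, KO PBS and KO LPS, each of 3 arrays. Neither the age of the mice, the knockout allele, the way macrophages were separated nor whether replicates came from separate mice is given in the sources used here, so p-values measure only the spread between these arrays, which may be technical. Levels below are log2 signal less the array's 75th percentile, on a scale private to each probe, and a gene was called where limma's adjusted p was under 0.05.

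Several features of the arrays bear on every comparison. All 11 macrophage markers examined were detected. With LPS 7 of them were called lower in each genotype, at medians of -0.43 in WT and -0.42 in KO, and 3 higher in WT and 2 in KO. Their summed level ran from 698 to 761 in WT PBS and 706 to 782 in WT LPS, and from 722 to 802 and 721 to 746 in KO. Arrays of a group correlated at 0.99 to 0.998. The probe of Gpr15 was well above background on 0 of 12 arrays, so the knockout could not be checked from it. Xist was above background on 6 of 6 WT arrays and 0 of 6 KO arrays, and the Y-linked Ddx3y, Kdm5d and Uty on 0 of 6 and 6 of 6, so genotype and sex cannot be told apart. Slide 1 carried the 6 WT arrays with KO PBS replicates 1 and 2, whereas slide 2 carried KO PBS replicate 3 and the 3 KO LPS arrays. Where slide is added as a term to a fit, its effect thus rests on KO PBS replicate 3 against replicates 1 and 2. Slide and the deviation of that 1 array cannot be told apart. The summed linear level of 11 B-cell markers went from between 155 and 196 in WT PBS to between 76.9 and 91.1 in WT LPS, and from between 133 and 138 in KO PBS to between 61.5 and 63.2 in KO LPS. That of 9 T-cell markers went from between 26.1 and 31.3 to between 15.9 and 16.9 in WT and from between 23.7 and 25.7 to between 13.8 and 15.6 in KO. That of 8 mast-cell markers went up, from between 111 and 150 to between 241 and 263 in WT and from between 99.1 and 116 to between 188 and 205 in KO. This sum is weighted to Hdc, the marker with the highest level, which rose by 1.54 in WT and 1.44 in KO. By call 3 of the 8 rose and 2 fell in WT, and 3 rose and 1 fell in KO. The part of these cells in the results on Zfp genes was not tested, and in bulk RNA fewer cells of a type and less RNA per cell cannot be told apart.

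Most of the 313 genes were measured throughout. Of them, 266 were well above background on all 12 arrays, while 16 reached all 3 arrays in exactly 3 groups, 21 in exactly 2 and 10 in exactly 1. The genes as a set were dim: 100 had a mean level above the median of all tested genes and 213 below it. Just inside the detection limit, Zfp366 reached it only in KO LPS, with levels of -2.84, -2.99 and -3.19 against -3.48 to -3.63 in WT LPS. Zfp239 reached it only in WT PBS, at -3.44, -3.70 and -3.44. Just outside it, Zfp30 was above background on 4 arrays but on no more than 2 of a group, at -3.28, -3.54 and -3.73 in WT PBS. Of the 61 symbols that were not kept, 12 had at most 2 arrays above background in a group, 15 had at most 1 and 34 had none.

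The first comparison asks how the Zfp genes of WT macrophages responded to LPS. LPS moved this family in both directions, with a few large changes among many small ones. The pluripotency-associated factor Zfp296 rose 2.89-fold, Zfp791 3.67-fold and Zfp783 2.64-fold, while Zfp710 fell by 1.32 and Zfp287, a KRAB and SCAN domain protein, by 1.22 on the log2 scale. Zfp811 was above background with LPS alone, and Zfp831 and Zfp395 with PBS alone.

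Of the 313 genes, 76 were called higher after LPS in WT (24.3%) and 102 lower (32.6%). Over all 13283 tested genes 33.7% were called higher and 31.0% lower, so the share of rises was below the background and the share of falls close to it. The median change of the Zfp genes was -0.05, against 0.03 for all tested genes. Changes were also smaller, with 11 Zfp genes at least 2-fold higher and 20 at least 2-fold lower, or 9.9% of them against 15.6% of all tested genes. Among the 100 brighter Zfp genes 35 were called higher and 26 lower, beside 43.7% and 27.8% of all tested genes above the same level.

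Zfp296 read 0.06, 0.07 and 0.25 in WT PBS and 1.59, 1.71 and 1.67 in WT LPS. In KO the same probe read -0.25, -0.32 and -0.20 with PBS and 1.10, 1.24 and 1.22 with LPS. The LPS arrays lay above all PBS arrays in each genotype, by 1.53 ± 0.07 (SE, n = 3 arrays a group) in WT and 1.44 ± 0.07 in KO (limma adjusted p = 3.4e-09 and 6.65e-09). Zfp791 read 3.69, 3.79 and 3.30 in WT PBS against 5.49, 5.79 and 5.13 in WT LPS, and 3.48, 3.29 and 3.91 in KO PBS against 5.46, 5.48 and 5.46 in KO LPS. No array of 1 treatment overlapped the other, and the rise was 1.88 ± 0.18 in WT and 1.91 ± 0.18 in KO (limma adjusted p = 2.23e-06 and 2.31e-06). The transcript Zfp133-ps, annotated as a pseudogene, rose by 1.83 ± 0.20 and 1.96 ± 0.20. Its PBS arrays reached at most 1.20, on KO PBS replicate 3, and its LPS arrays at least 2.19.

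Zfp783 read -0.35, -0.30 and -0.16 in WT PBS and 1.09, 0.97 and 1.33 in WT LPS. In KO it read -0.06, 0.02 and -0.32 with PBS and 1.36, 1.34 and 1.25 with LPS. The groups did not overlap, and the rise was 1.40 ± 0.10 in WT and 1.44 ± 0.10 in KO (limma adjusted p = 2.05e-07 and 2.06e-07). Zfp281, a factor that restrains the pluripotency programme of stem cells, rose from 0.69, 0.78 and 0.16 to 1.68, 1.80 and 1.16 in WT, a change of 1.00 ± 0.17, and by 0.90 ± 0.17 in KO. Zfp593, the relative of a yeast protein that escorts large ribosomal subunits out of the nucleus, rose by 0.95 ± 0.08 and 0.76 ± 0.08. The other large rises in WT, among genes above background on all 6 arrays, were Zfp707 (1.12), Zfp975 (0.95), Zfp213 (0.88) and Zfp362 (0.87), with adjusted p between 1.81e-08 and 2.29e-05. For Zfp707 a further kept probe was called in the opposite direction in both genotypes, and with the mean over its probes the WT change was 0.24 (limma adjusted p = 0.0508).

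Zfp811 was at background on the 6 PBS arrays, where it read -6.28, -6.26 and -6.12 in WT and -6.27, -6.22 and -5.10 in KO. It was above background on all LPS arrays, at -3.45, -3.65 and -2.90 in WT and -2.29, -2.16 and -2.65 in KO. For such a gene the fold is a lower bound, taken against the higher of the probe's own signal and the lowest signal well above background on each PBS array. On that basis Zfp811 was at least 1.67-fold higher in WT LPS and at least 3.51-fold higher in KO LPS (limma adjusted p = 8.82e-06 and 2.06e-06). Zfp819, a KRAB protein linked to silencing of endogenous retroviruses in stem cells, behaved differently. It read -4.24, -5.23 and -4.48 in WT PBS, below background, and -2.79, -2.17 and -3.08 in WT LPS, at least 2.62-fold higher (limma adjusted p = 0.000258).

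Among the falls, Zfp710 read 2.64, 2.68 and 2.52 in WT PBS and 1.32, 1.39 and 1.18 in WT LPS. In KO it read 2.73, 2.82 and 2.67 with PBS and 0.67, 0.77 and 0.81 with LPS. Every LPS array lay below every PBS array, by 1.32 ± 0.07 in WT and by 1.99 ± 0.07 in KO (limma adjusted p = 1.33e-08 and 1.06e-09). Zfp287 read -0.89, -0.84 and -0.85 in WT PBS against -2.13, -1.89 and -2.20 in WT LPS. In KO it went from -0.98, -0.97 and -1.07 to -2.43, -2.44 and -2.42, and the falls were 1.22 ± 0.09 in WT and 1.42 ± 0.09 in KO. Zfp692, reported as a regulator of gluconeogenic genes, stood at 0.94, 0.92 and 0.96 in WT PBS and at -0.15, -0.20 and -0.09 in WT LPS, a change of -1.09 ± 0.05. The other large falls in WT, under the same condition, were Zfp764 (-1.31), Zfp760 (-1.29), Zfp61 (-1.29), Zfp663 (-1.23), Zfp934 (-1.08), Zfp667 (-0.91) and Zfp414 (-0.91), with adjusted p between 1.03e-07 and 0.000168. With the mean over kept probes Zfp764 changed by -0.80, Zfp61 by -0.79 and Zfp934 by -0.58, still called. A further kept probe of Zfp61 was called the opposite way in KO.

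Zfp831 left the detectable range in both genotypes. It read -1.80, -1.97 and -1.26 in WT PBS and -1.70, -1.62 and -1.89 in KO PBS, and was not well above background on any of the 6 LPS arrays, where it read between -5.02 and -6.62. It was thus at least 4.86-fold lower in WT LPS and at least 6.52-fold lower in KO LPS (limma adjusted p = 4.04e-07 and 1.63e-07). Zfp395, which binds the promoter of the Huntington's disease gene, was at -2.99, -2.90 and -2.68 in WT PBS and below background on the LPS arrays, at least 2.14-fold lower in WT and at least 2.53-fold lower in KO. Zfp354c was at least 1.86-fold lower in WT, from -3.14, -3.12 and -2.92. In KO, Zfp78 was at least 1.80-fold lower (limma adjusted p = 0.00122). The B-cell and T-cell marker levels given above fell in the same arrays, and their part in these falls was not tested.

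**Figure D1:**
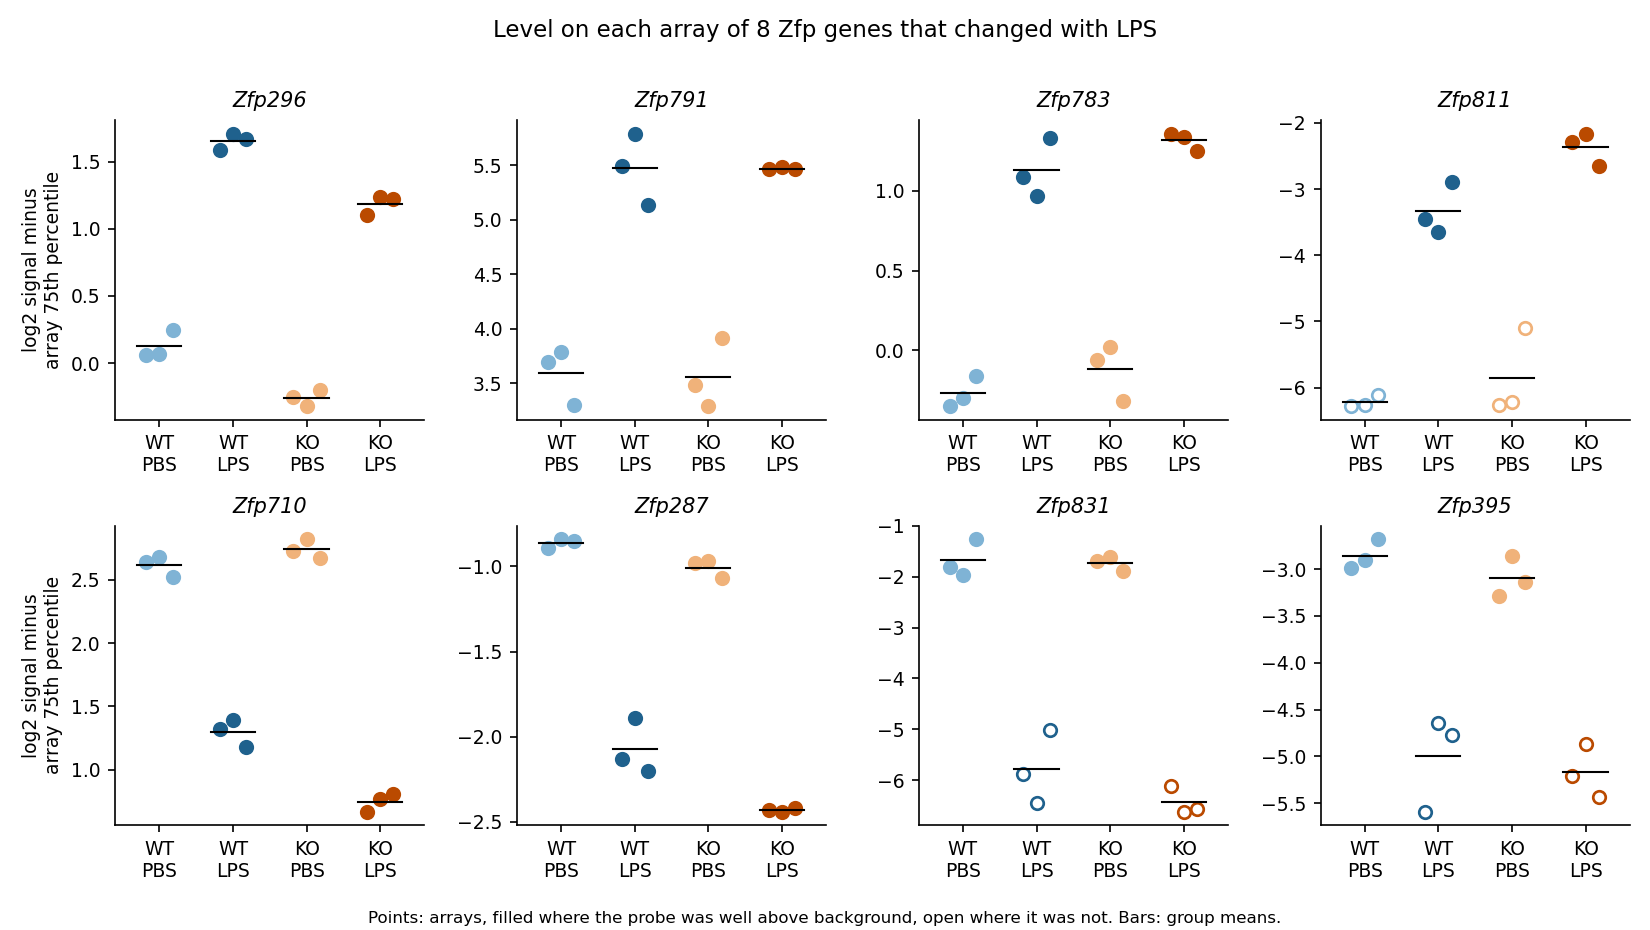
Level of 8 Zfp genes on each of the 12 arrays (y axis, log2 signal less the array's 75th percentile, 1 scale for each gene) by group (x axis, 3 arrays each). Filled points were well above background, open points were not, and bars are group means. The LPS and PBS arrays do not overlap for any of the 8 genes, as for Zfp296 at 1.59 to 1.71 in WT LPS against 0.06 to 0.25 in WT PBS.

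The same comparison was made in KO macrophages. Among genes above background on all 6 arrays, many with the largest changes were those named in WT, with rises of Zfp791 (3.75-fold), Zfp296 (2.72-fold) and Zfp783 (2.71-fold) and a 3.97-fold fall of Zfp710. Of 313 genes, 89 were called higher (28.4%) and 82 lower (26.2%), where 35.1% and 32.0% of all tested genes were, and the median change was 0.01 against 0.04. The KO LPS arrays lay on slide 2 and KO PBS on both slides, and with slide as a term in the fit 69 were called higher and 63 lower. After Zfp133-ps and the 3 rises just named came Zfp707 (1.26, but 0.31 with the mean over its probes) and Zfp488, a factor of oligodendrocyte differentiation, with 1.03 ± 0.07. Zfp362 rose by 0.93, Zfp281 by 0.90, Zfp827, which recruits the NuRD complex to telomeres, by 0.88 and the corepressor Zfp703 by 0.86. The largest falls after Zfp710 and Zfp287 were Zfp61 (-1.15, but -0.38 with the mean over its probes), Zfp273 (-1.14), Zfp101 (-1.02), Zfp414 (-1.01), Zfp663 (-0.99), Zfp882 (-0.94), Zfp692 (-0.89) and Zfp90 (-0.86), a partner of the silencing factor REST.

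Set side by side, 62 Zfp genes were called higher in both genotypes, of 76 in WT and 89 in KO, and 68 lower in both, of 102 and 82. These were 19.8% and 21.7% of the Zfp genes, beside 26.8% and 26.4% of all tested genes. Of the Zfp genes 0 were called in opposite directions, beside 0.610% of all tested genes, and 30.0% were called in neither genotype, beside 22.1%. These comparisons share no arrays. Across the 313 genes the LPS changes in WT and KO correlated at r = 0.90, against 0.88 across all tested genes. Genes are not independent replicates, so this is a description. The sign was the same for 78.3% of the Zfp genes and 84.0% of all tested genes.

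**Figure D2:**
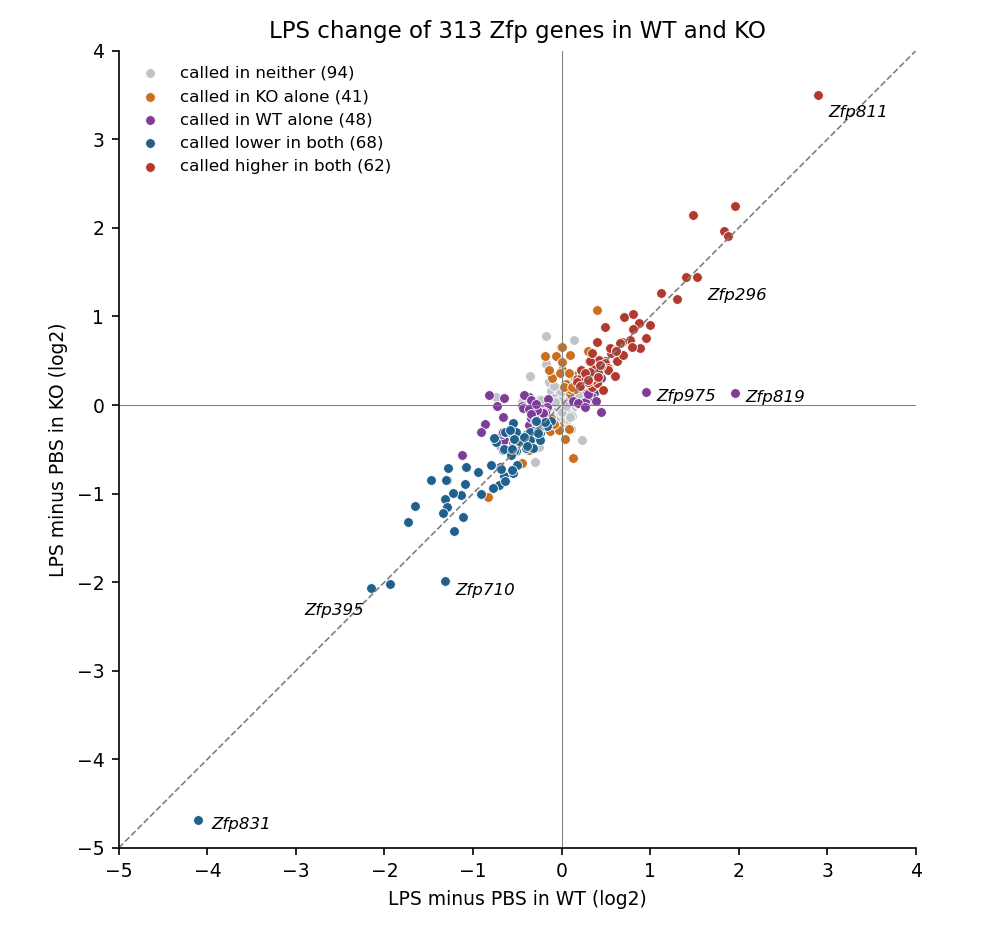
LPS minus PBS on the log2 scale in WT (x axis) and in KO (y axis) for 313 Zfp genes, 1 point each, coloured by where limma called the gene, with equal change on the dashed line. The 62 genes called higher in both and the 68 called lower in both lie along that line from Zfp831 to Zfp811, both plotted at fitted values though below background in a group, while Zfp975 and Zfp819 were called higher in WT and not in KO.

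Promoter sequences are shown for the Zfp genes that were called higher in both genotypes and held a kappaB motif, the letters that NF-kappaB dimers bind, and for Zfp296 beside them. RefSeq promoter windows of assembly GRCm38.p6, from 250 bases before to 50 bases after the start, were at hand for 260 of the 313 genes, in 317 windows. Each is written 5′ to 3′ on the gene's strand, with matches to GGGANTTCC on either strand in capitals. Zfp783 is at chr6:47942925-47943224 on the plus strand, Zfp429 at chr13:67399718-67400017 and its neighbour Zfp456 at chr13:67375714-67376013 on the minus strand. Zfp850 is at chr7:28014066-28014365 on the minus strand and Zfp296, with no match in its window, at chr7:19577037-19577336 on the plus strand.
Zfp783: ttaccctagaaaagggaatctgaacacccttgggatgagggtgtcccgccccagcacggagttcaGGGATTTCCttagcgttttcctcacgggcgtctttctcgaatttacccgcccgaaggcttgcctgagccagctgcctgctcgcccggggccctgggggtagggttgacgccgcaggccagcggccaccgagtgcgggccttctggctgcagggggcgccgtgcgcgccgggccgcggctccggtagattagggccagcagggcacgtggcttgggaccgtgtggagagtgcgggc
Zfp429: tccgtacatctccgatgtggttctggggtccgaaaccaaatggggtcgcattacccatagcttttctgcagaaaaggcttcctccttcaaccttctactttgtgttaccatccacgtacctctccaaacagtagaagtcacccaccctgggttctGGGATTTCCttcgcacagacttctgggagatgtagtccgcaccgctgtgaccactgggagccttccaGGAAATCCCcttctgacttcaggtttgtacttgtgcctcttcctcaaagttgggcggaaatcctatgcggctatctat
Zfp456: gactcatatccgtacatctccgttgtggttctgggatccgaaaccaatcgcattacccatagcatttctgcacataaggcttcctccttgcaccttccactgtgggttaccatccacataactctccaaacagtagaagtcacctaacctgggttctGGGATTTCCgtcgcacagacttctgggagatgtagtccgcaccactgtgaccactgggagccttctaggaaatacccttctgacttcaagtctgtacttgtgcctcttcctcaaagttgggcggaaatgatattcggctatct
Zfp850: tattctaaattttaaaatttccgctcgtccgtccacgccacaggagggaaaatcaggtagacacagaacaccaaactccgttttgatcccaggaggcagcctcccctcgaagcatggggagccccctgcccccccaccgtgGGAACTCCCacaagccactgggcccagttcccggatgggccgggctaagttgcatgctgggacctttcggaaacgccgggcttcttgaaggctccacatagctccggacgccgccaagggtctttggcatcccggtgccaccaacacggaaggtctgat
Zfp296: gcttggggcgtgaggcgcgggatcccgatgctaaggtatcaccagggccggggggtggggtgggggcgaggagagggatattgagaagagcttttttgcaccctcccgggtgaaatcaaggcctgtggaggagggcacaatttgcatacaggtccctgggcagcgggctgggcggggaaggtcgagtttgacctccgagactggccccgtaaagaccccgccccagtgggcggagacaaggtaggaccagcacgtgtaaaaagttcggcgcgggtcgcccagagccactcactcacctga

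These 4 matched windows were 6.56% of the 61 windows of genes called higher in both genotypes. The motif lay in 1.64% of the 61 windows of genes called lower in both, in 3.79% of all Zfp windows and in 1.68% of the 32851 windows of the whole table. Zfp429 read 0.84, 0.92 and 0.89 in WT PBS and 1.17, 1.27 and 1.10 in WT LPS, and Zfp456 -1.63, -1.54 and -1.67 against -1.51, -1.30 and -1.37. Zfp429 and Zfp456 rose by 0.29 and 0.22 in WT and by 0.32 and 0.39 in KO, and Zfp850 by 0.37 and 0.33. Among motifs common in housekeeping promoters, the GC box GGGCGG lay in 46.7% of Zfp windows against 35.7% of all windows, the ETS motif CCGGAAGT in 10.4% against 3.89% and the cyclic AMP element TGACGTCA in 4.73% against 1.79%. The TATA motif TATAAA lay in 6.62% against 13.6%, the AP-1 motif TGANTCA in 3.47% against 7.81% and the interferon-response letters GAAANNGAA in 5.36% against 8.56%. The median count of CpG was 14 per Zfp window against 7 over all windows. The Zfp genes had passed the detection filter, whereas all windows take in genes whether or not they passed it. Windows of the tested genes alone were not counted, so family and detection cannot be told apart in these shares. Motifs were searched on both strands and may overlap each other, and a match is a description and not a binding site.

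The Zfp genes were next grouped by role, from lists chosen with earlier results of these data known. Their counts stand beside 33.7% of all tested genes called higher and 31.0% lower with LPS in WT, and 35.1% and 32.0% in KO. Since KO LPS lay on slide 2 and KO PBS on both slides, KO values with slide as a term are given where they end a call. Of 5 measured genes for silencing of retroelements and imprinted loci, 3 rose and none fell in WT, and the same counts held in KO, with a median of 0.32 and 0.40. Zfp809, which targets murine leukemia virus sequences in stem cells, read -1.53, -1.60 and -1.57 in WT PBS and -1.46, -1.02 and -1.19 in WT LPS. It rose by 0.34 ± 0.10 in WT and 0.59 ± 0.10 in KO, but without WT LPS replicate 2 the WT call was lost (0.24, limma adjusted p = 0.0531). Zfp568, a repressor of a placental Igf2 transcript, rose by 0.32 ± 0.07 and 0.50 ± 0.07. Zfp932, a repressor of endogenous retroviruses, differed by 0.22 ± 0.09 in WT (limma adjusted p = 0.0617) and by 0.40 ± 0.09 in KO, where the call was lost with slide as a term (0.12, limma adjusted p = 0.121) and with the mean over its probes (0.12, limma adjusted p = 0.235). The imprinting regulator Zfp445 changed by -0.03 and 0.09 without a call, and Zfp57, Zfp708 and Zfp42 were not kept by the detection rule.

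Of 10 measured RNA-binding and translation-linked genes, 5 rose and 0 fell in WT, and 6 rose and 1 fell in KO, with a median of 0.25 and 0.23. Zfp598, the ubiquitin ligase that senses collided ribosomes, read 2.52, 2.57 and 2.45 in WT PBS and 3.13, 3.14 and 3.09 in WT LPS. In KO it read 2.39, 2.48 and 2.33 against 3.05, 3.07 and 2.94, and the rises of 0.61 ± 0.05 and 0.62 ± 0.05 left no overlap (limma adjusted p = 1.07e-06 and 1.06e-06). Zfp622, a maturation factor of the large ribosomal subunit, rose by 0.52 ± 0.07 and 0.40 ± 0.07, and the spindle and splicing protein Zfp207 by 0.33 ± 0.07 and 0.22 ± 0.07. The KO call of Zfp207 was lost under 5 alternatives, the mean over its probes among them, and its WT call under 1. The double-stranded RNA binder Zfp346 was called in WT (0.34 ± 0.11), and Zfp385a (0.24) and the pre-mRNA processing factor Zfp830 (0.34) in KO. None of these 3 passed the interaction test, and with slide as a term the KO calls of Zfp385a (0.03) and Zfp830 (0.21) were lost. Zfp106, an RNA-binding protein needed by motor neurons, fell by 0.23 in KO, a call lost with the mean over its probes (limma adjusted p = 0.495). Zfp326 and Zfp638 changed by 0.05 to 0.19 without a call.

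Of 5 measured genes tied to immune signalling, 1 rose and 2 fell in WT and 1 rose and 3 fell in KO. Zfp318, which lets B cells make IgD, rose by 0.47 ± 0.06 in WT and 0.17 ± 0.06 in KO, while the summed B-cell markers were lower with LPS in both genotypes. Zfp64, reported to promote Toll-like receptor cytokines, fell by 0.16 in WT (limma adjusted p = 0.0472) and read -0.02 in KO. Zfp91, a ubiquitin ligase for the kinase NIK, fell by 0.21 and the chromatin-linked Zfp335 by 0.24 in KO, and the call of Zfp335 was lost with slide as a term (-0.07, limma adjusted p = 0.433). Zfp287 made up the rest, and Zfp521 was not kept.

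Of 9 measured chromatin cofactors, 3 rose and 1 fell in WT and 4 rose and 1 fell in KO. The SUMO ligase Zfp451 read 1.03, 1.06 and 0.97 in WT PBS and 1.69, 1.73 and 1.72 in WT LPS, a rise of 0.69 ± 0.06, and rose by 0.57 ± 0.06 in KO. Zfp827 rose by 0.49 in WT. Zfp410, an activator of the NuRD gene Chd4, was called in WT (0.26), and Zfp609, a partner of cohesin loading (0.61), and Zfp516, a brown fat factor (0.27), in KO. None of these 3 passed the interaction test. Zfp410 was not called in WT with the mean over its probes (0.10, limma adjusted p = 0.373), nor Zfp609 in KO with slide as a term (0.20, limma adjusted p = 0.0809). Zfp608 fell by 0.31 in WT and Zfp687 by 0.22 in KO, the latter not called with slide as a term (-0.19, limma adjusted p = 0.0625), while Zfp592 and Zfp217 had no call in either and Zfp532 was not kept. Of 9 stem cell and developmental factors, 3 rose and 3 fell in each genotype. Besides Zfp296 and Zfp281 the promoter-binding factor Zfp143 rose, by 0.41 and 0.38, and its KO call was lost with slide as a term (0.21, limma adjusted p = 0.217). Zfp467, which biases mesenchymal progenitors to fat, fell by 0.74 ± 0.08 in WT and 0.42 ± 0.08 in KO. Zfp706 fell by 0.19 in both and Zfp322a by 0.12 and 0.18, the KO call of Zfp322a being lost with slide as a term (-0.13, limma adjusted p = 0.0886), while Zfp148, Zfp219 and Zfp384 were not called and Zfp462 and Zfp423 were not kept.

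**Figure D3:**
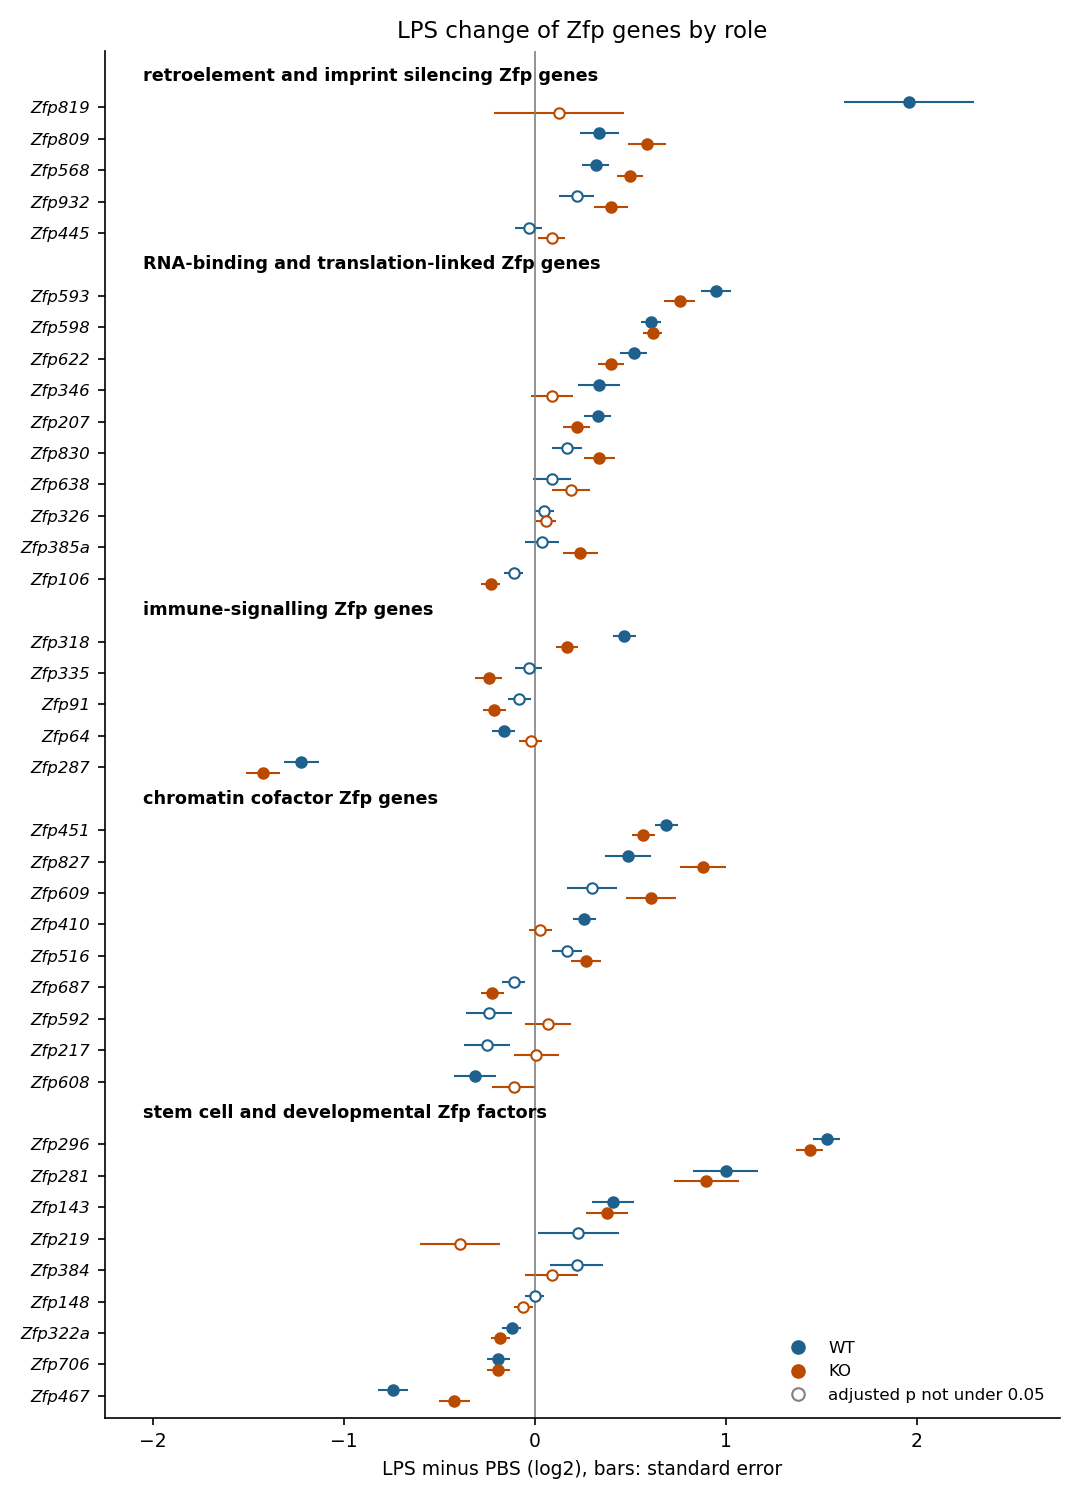
LPS minus PBS on the log2 scale (x axis) with its standard error for the measured Zfp genes of 5 role lists (y axis), in WT and KO. Filled points had a limma adjusted p under 0.05. Zfp819, below background in WT PBS, is plotted at its fitted value. In the RNA-binding list 5 of 10 WT points are filled, all of them above 0 and led by Zfp593 at 0.95, and Zfp287 at -1.22 and -1.42 stands apart in the immune list.

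The corepressor genes through which KRAB Zfp proteins act were also read. Of 31 measured genes of the TRIM28 machinery, 16 rose and 6 fell in WT and 10 rose and 9 fell in KO, with medians of 0.21 and -0.01. Beside them 33.7% of all tested genes were called higher and 31.0% lower in WT, and 35.1% and 32.0% in KO, where the counts of the list are near the background. Trim28 itself rose by 0.57 ± 0.04 in WT and 0.53 ± 0.04 in KO (limma adjusted p = 6.98e-08 and 1.61e-07). Chd3, a NuRD helicase that binds TRIM28, fell by 1.02 and 0.88. The HUSH complex gene Pphln1 rose by 0.79 in WT and 0.67 in KO, Sumo2 by 0.54 and 0.56 and the remodeller Smarcad1 by 0.63 and 0.71. Daxx, a histone H3.3 chaperone and interferon-inducible gene, rose by 1.56 in WT and changed by 0.19 in KO (limma adjusted p = 0.0562). That difference passed the interaction test (-1.38 ± 0.11, limma adjusted p = 2.95e-05). The interaction was called higher in 0 of the 31 genes and lower in 2, beside 0.926% and 3.39% of all tested genes. The other was Gatad2a (-0.45 ± 0.11, limma adjusted p = 0.039), named after its values were seen. Neither interaction is given with slide as a term, and KO LPS lay on slide 2.

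Zfp genes often lie in clusters, so neighbours were compared. The gene order shows 56 pairs of Zfp genes among the 313 that lie next to each other, which takes in 98 genes. After LPS both genes of 9 pairs were called the same way in WT and of 6 in opposite ways, and in KO the counts were 6 and 7. Of all 313 genes 24.3% were called higher and 32.6% lower in WT, and 28.4% and 26.2% in KO. Of all tested genes the shares were 33.7% and 31.0% in WT, and 35.1% and 32.0% in KO. Pairs that are not neighbours were not counted, so the pairs named here are a description and no result about clusters. Zfp78 and Zfp28 were both called lower in each genotype. Zfp78 was at least 1.20-fold lower in WT and 1.80-fold in KO, and Zfp28 was above background on 1 of 3 WT LPS and 2 of 3 KO LPS arrays, so that its level there is only partly measured. Zfp251 and Zfp7 fell by 0.50 and 0.55 in WT. Zfp637 fell by 0.54 beside Zfp239, which was called lower in WT but above background on 1 of 3 WT LPS arrays. Zfp719 rose by 0.66 beside Zfp819 in WT and by 0.70 beside Zfp658 (0.31) in KO. Zfp260 and Zfp382 fell by 0.41 and 0.60 in KO. With slide as a term Zfp658 (0.05, limma adjusted p = 0.583) and Zfp382 (-0.27, limma adjusted p = 0.394) lost their KO calls, Zfp382 also with the mean over its probes and without KO LPS replicate 1. By contrast Zfp692 fell by 1.09 in WT beside Zfp672, which rose by 0.44, although a further probe of Zfp672 was called the opposite way. Near-identical copies within such clusters may share a probe, and probe sequences were not examined here.

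The comparison of KO with WT in PBS asks what the genotype changed at rest. Few Zfp genes differed, mostly lower in KO. Of 313, 8 were called higher (2.56%) and 20 lower (6.39%), where 8.06% and 6.05% of all tested genes were, and the median was -0.04 against 0.01. On slide 1 alone, with 2 KO arrays, the counts were 4 and 8, beside 5.21% and 2.97% of all tested genes. Single arrays also weighed on the counts. They were 2 and 7 without WT PBS replicate 1 (4.18% and 2.73% of all tested genes) and 1 and 7 without WT PBS replicate 2 (4.58% and 3.27%). They were 6 and 10 without KO PBS replicate 1 (5.59% and 4.06%) and 6 and 11 without KO PBS replicate 2 (5.92% and 4.28%). Leaving out a KO LPS array, which enters only through the shared variance, gave 4 and 11 to 13, beside 6.33% to 6.61% and 4.59% to 4.94% of all tested genes. Without WT LPS replicate 1 there were 5 higher and 14 lower, beside 6.56% and 4.73% of all tested genes. Without WT LPS replicate 2 there were 4 and 16, beside 7.56% and 5.61%. Counts of 8 and 22 came without WT LPS replicate 3 (9.04% and 6.82%), and of 6 and 18 without KO PBS replicate 3 (9.50% and 5.72%). Leaving out WT PBS replicate 3 raised the counts to 12 and 25, beside 9.76% and 9.66% of all tested genes.

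Zfp608, a paralog of Zfp609, read -0.49, -0.24 and -0.37 in WT PBS and -0.91, -1.12 and -0.95 in KO PBS, a difference of -0.63 ± 0.11 without overlap (limma adjusted p = 0.00419). Zfp667, known as Mipu1 from ischaemic heart, read -1.38, -1.52 and -1.93 against -2.39, -2.45 and -2.26, a difference of -0.76 ± 0.15 (limma adjusted p = 0.00669). Zfp296 differed by -0.38 ± 0.07, with all KO values under 0 and all WT values above it (limma adjusted p = 0.00333). Zfp692 (-0.34), Zfp292, a growth hormone gene regulator (-0.46), and Zfp850 (-0.49) were lower too. On slide 1 alone Zfp608, Zfp667, Zfp296, Zfp692 and Zfp292 kept their calls, at -0.65, -0.81, -0.41, -0.38 and -0.39, and Zfp850 did not (-0.39, limma adjusted p = 0.142). By call, 6 of 11 B-cell and 3 of 9 T-cell markers were lower in KO PBS, while 3 of 11 macrophage and 2 of 5 measured neutrophil markers were higher. The summed neutrophil level was between 5.81 and 9.05 in KO PBS against 3.11 to 4.11 in WT PBS, and S100a9 differed by 2.64 (limma adjusted p = 0.00562), while Ly6g, Cxcr2, Ngp and Ltf were not measured under the detection rule. The part of these cells in these differences was not tested.

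The largest difference upward was in Zfp819. It was not above background in WT PBS and read -3.38, -2.52 and -3.56 in KO PBS, at least 1.89-fold higher (limma adjusted p = 0.0135). Zfp975 read 3.58, 3.57 and 3.97 in WT PBS and 4.16, 4.12 and 4.18 in KO PBS, a difference of 0.45 ± 0.09. Zfp992 (0.44), Zfp36l3 (0.33), Zfp11 (0.31), Zfp984 (0.27), Zfp985 (0.26) and Zfp523 (0.21) were also called. Of these 8, Zfp819, Zfp992 and Zfp523 passed on slide 1 alone (limma adjusted p = 0.0400, 0.0368 and 0.0358), with differences of 0.30 for Zfp992 and 0.26 for Zfp523. Zfp873, above background on 3 of 3 KO PBS and 0 of 3 WT PBS arrays, was at least 1.32-fold higher without a call (limma adjusted p = 0.293).

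After LPS, KO and WT were compared on arrays that lie on different slides, and these arrays are shared with the LPS comparisons above. Of 313, 63 were called higher (20.1%) and 53 lower (16.9%) in KO, where 20.0% and 19.5% of all tested genes were, with a median of 0.00 against -0.01. Scaling by the array median, which moved the median over all genes from -0.01 to -0.12, gave 42 higher and 82 lower, beside 13.0% and 30.1% of all tested genes. The 3 WT LPS arrays lay on slide 1 and the 3 KO LPS arrays on slide 2, and KO PBS is the group that links the slides, through replicate 3 alone. With slide as a term in the fit 4 Zfp genes were called higher (1.28%) and 2 lower (0.639%), beside 2.60% and 3.24% of all tested genes.

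The 6 largest differences upward, among called genes above background on all 6 arrays compared and without overlap, show the pattern array by array. Zfp345, above background on 1 of 3 WT LPS arrays, differed by 1.17 and by -0.50 with the slide term. Zfp72 read -1.93, -2.12 and -2.00 in WT LPS and -1.06, -0.99 and -0.77 in KO LPS, a difference of 1.08 ± 0.21 (limma adjusted p = 0.00257). In KO PBS it read -1.82 and -1.78 on slide 1 and -0.86 on slide 2, and with the slide term the difference was 0.14. Zfp648 read -1.70, -1.97 and -1.76 in WT LPS and -0.78, -0.89 and -0.78 in KO LPS, with KO PBS at -1.75 and -1.60 on slide 1 and -0.74 on slide 2. Its 0.99 became 0.05 with the slide term. Likewise Zfp981 (1.33) became 0.16, Zfp600 (1.00) 0.20, Zfp987 (0.98) 0.33 and Zfp352 (1.03), a gene of the early embryo, 0.56, none of them called with that term. Over the 63 genes called higher, KO PBS replicate 3 exceeded the mean of replicates 1 and 2 in 51, with a median gap of 0.30, and over the 53 called lower it did so in 7, with a median of -0.10. Among the 197 genes without a call it did so in 98. Over all 313 Zfp genes it did so in 156, and over all 13283 tested genes in 5916, with a median gap of -0.03. The gap also went with the KO difference after LPS across the whole array, at r = 0.52 over all tested genes and 0.64 over the Zfp genes.

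**Figure D4:**
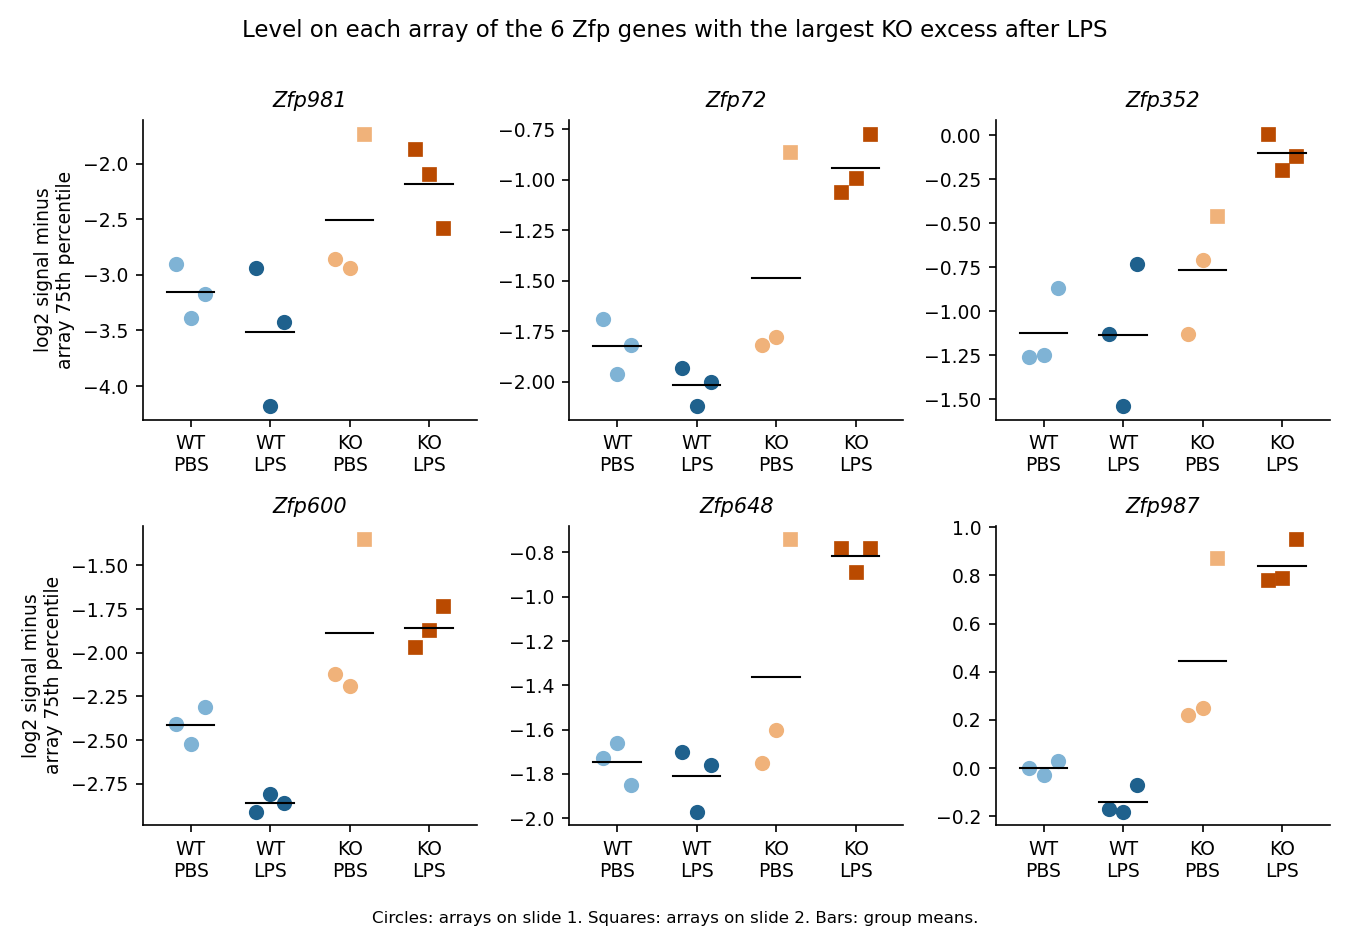
Level on each array (y axis, log2 signal less the array's 75th percentile, 1 scale for each gene) of 6 Zfp genes, by group (x axis, 3 arrays each, bars are means). These had the largest KO excess after LPS among called genes above background on all 6 LPS arrays and without overlap. Circles are slide 1 and squares slide 2. The KO PBS array on slide 2 stands above its slide 1 replicates in all 6 panels, as for Zfp72 at -0.86 against -1.82 and -1.78.

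A few differences after LPS were called with the slide term too. Zfp296 was lower in KO, -0.47 ± 0.07 without that term and -0.55 with it (limma adjusted p = 0.000467 and 0.0223). Zfp318 read 1.05, 1.04 and 1.05 in WT LPS against 0.52, 0.53 and 0.57 in KO LPS, a difference of -0.51 ± 0.06 that was -0.28 with the term (limma adjusted p = 0.0484). Zfp523, a relative of Zfp143, read 1.84, 1.99 and 1.97 against 2.37, 2.27 and 2.30, a difference of 0.38 that was 0.55 with the term. Zfp407 (0.20 and 0.33) was likewise called in both, and Zfp316 (0.09 and 0.37) only with the term. Zfp523, Zfp407 and Zfp316 were named after their values were seen. The largest differences downward, under the same condition as those upward, were Zfp219 (-0.64), Zfp383 (-0.59), Zfp710 (-0.55), Zfp850 (-0.52) and Zfp821 (-0.51) besides Zfp318. None of these 5 was called with the slide term (0.17, -0.38, -0.44, -0.22 and -0.17). For Zfp467 and Zfp276 a further kept probe was called the opposite way in this comparison.

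The interaction takes the LPS change of WT away from that of KO and asks whether the genotype altered the response of a Zfp gene. It was called in 5 of 313 genes, 2 higher (0.639%) and 3 lower (0.958%), where 0.926% and 3.39% of all tested genes were. The median was 0.06 against -0.01. With the replicate numbers as a block 6 were called higher (1.92%) and 5 lower (1.60%), beside 2.27% and 5.30% of all tested genes. Without KO PBS replicate 3, the array on the other slide, the counts were 37 (11.8%) and 21 (6.71%), beside 9.52% and 11.5% of all tested genes, and in that fit KO PBS lies on slide 1 and KO LPS on slide 2.

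Zfp518b, a partner of the histone methyltransferase G9a, read -1.39, -1.46 and -1.55 in WT PBS and -2.31, -2.07 and -2.21 in WT LPS, a fall of 0.73 ± 0.09. In KO it read -1.22, -1.31 and -1.15 with PBS and -1.20, -1.22 and -1.28 with LPS, a change of -0.01 ± 0.09. The difference of responses was 0.72 ± 0.12, and 0.64 with the slide term (limma adjusted p = 0.00454 and 0.0326). After LPS it was 0.96 higher in KO than in WT, and 0.84 with the slide term (limma adjusted p = 0.0103).

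Zfp710, whose levels are given above, fell further in KO, with an interaction of -0.67 ± 0.10 that was -0.61 with the slide term (limma adjusted p = 0.00147 and 0.0174). Zfp975 rose from 3.58, 3.57 and 3.97 to 4.60, 4.66 and 4.71 in WT, by 0.95 ± 0.09. In KO it stood at 4.16, 4.12 and 4.18 with PBS and at 4.31, 4.26 and 4.33 with LPS, a change of 0.15 ± 0.09 (limma adjusted p = 0.155). Its interaction was -0.81 ± 0.12, and -0.83 with the slide term (limma adjusted p = 0.00218 and 0.0165). Zfp367, an erythroid factor, fell by 0.64 in WT and 0.31 in KO, an interaction of 0.33 ± 0.08 that missed the threshold with the slide term (0.30, limma adjusted p = 0.108). Zfp821 rose by 0.44 in WT and changed by -0.08 in KO, an interaction of -0.52 ± 0.13 that was -0.30 with the term (limma adjusted p = 0.212). For Zfp819, below background in WT PBS, the size of the interaction was not measurable.

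**Figure D5:**
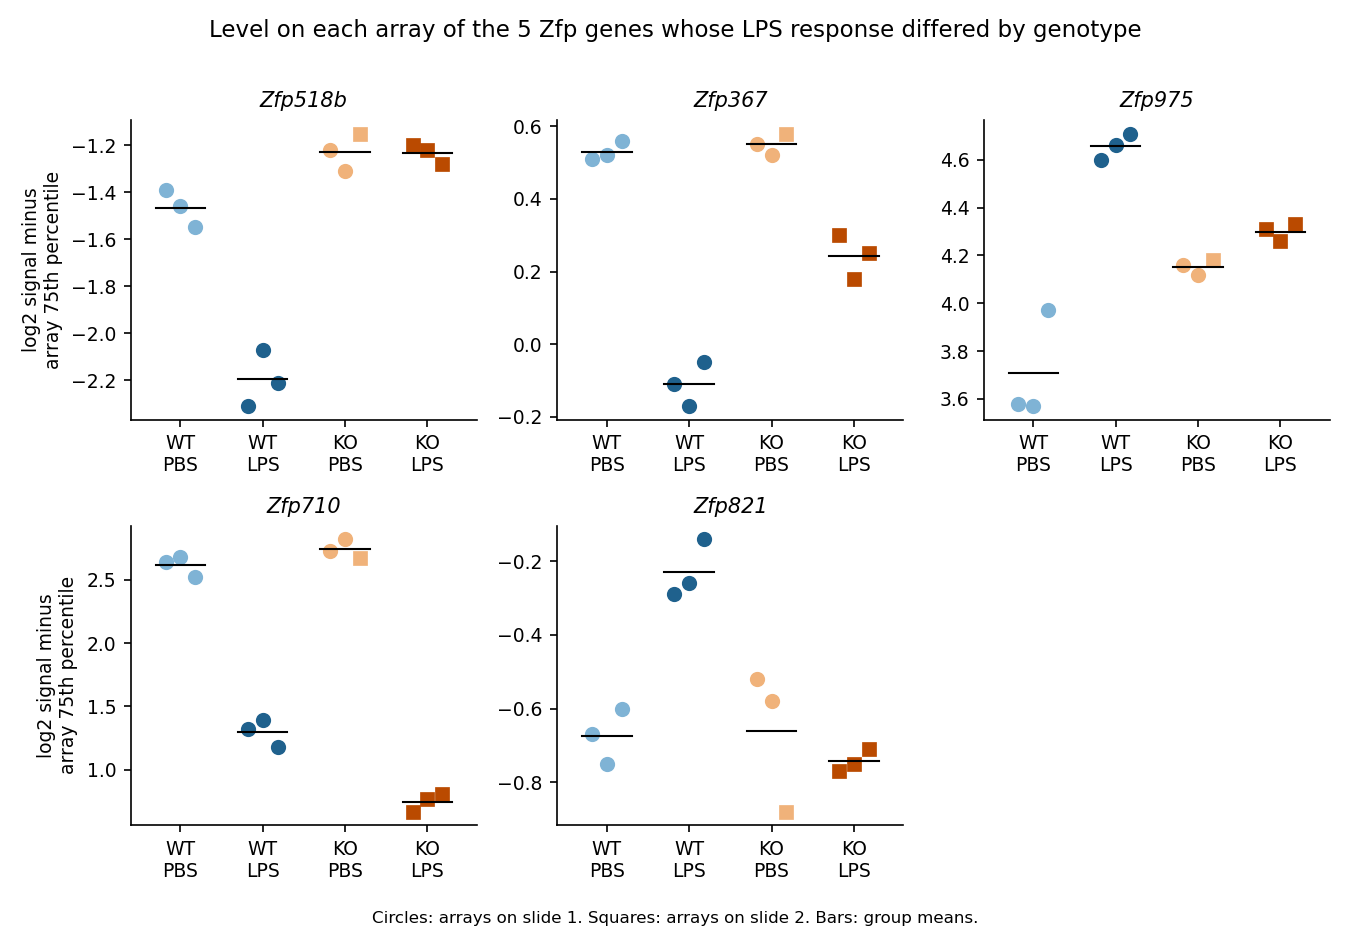
Level on each array (y axis, log2 signal less the array's 75th percentile, 1 scale for each gene) of the 5 Zfp genes with a called interaction, by group (x axis, 3 arrays each, bars are means). Circles are slide 1 and squares slide 2. Zfp518b lies between -1.39 and -1.55 in WT PBS, between -2.07 and -2.31 in WT LPS and between -1.15 and -1.31 on all 6 KO arrays.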

How the data were processed

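Groups and replicate numbers come from the sample titles. Per the file headers, each deposited file gives processed signal intensity, median and background intensity and quality marks for 62976 spots an array, 3671 of them controls, from Agilent Feature Extraction 11.5.1.1, per the submitters' processing notes. From these intensities log2 values were computed and reduced by each array's 75th percentile over non-control spots. Spots marked as outliers were left out of a probe's mean unless all its spots were marked. Of 56605 probes, 32994 (58.3%) were named through RefSeq accessions of assembly GRCm38.p6. The array's own positions are on mm9 and are not printed.

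With limma 3.58.1 (R 4.3.3) a mean per group was fitted over 12 arrays, the moderated variance following the mean level, with 8 residual degrees of freedom, two-sided tests and Benjamini-Hochberg adjustment over 13283 genes. The procedure was tested on simulated data. No list was tested as a set. The Zfp genes and all lists were chosen with earlier results of these data known. Named were the 10 largest rises and falls with LPS per genotype and the 6 largest per direction for KO against WT and the interaction, among called genes above background on all arrays compared and without overlap. To these come up to 3 lower bounds per direction, all measured genes of the 5 role lists, up to 4 corepressor genes and up to 4 neighbour pairs per LPS comparison.

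Deviations of PBS and LPS arrays with equal replicate numbers correlated over genes at r = 0.105, 0.371 and 0.481 in WT. In KO the values were 0.040, 0.113 and 0.081, and between genotypes they lay from -0.102 to 0.017. The LPS array that matched a PBS array best had the same number for WT replicates 2 and 3 and for KO replicates 1, 2 and 3, but not for WT replicate 1. Whether the numbers mark pairs thus cannot be told from the data. Alternatives were other scalings, normexp with an offset of 50 on the median signal in place of the mean signal first planned, no detection filter, probe means, no variance trend, slide, block and single arrays left out. Groups by KRAB domain and finger number were planned and not made.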

Additional observations from a re-analysis of the deposited data

Results flagged for a closer look

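The 5 genes below stood out because their LPS response differed between KO and WT by the interaction test of the model over all 13283 genes. The difference, KO less WT on the log2 scale, was 0.72 for Zfp518b, 0.33 for Zfp367, -0.67 for Zfp710, -0.52 for Zfp821 and -0.81 for Zfp975 (limma adjusted p = 0.00454, 0.0293, 0.00147, 0.0437 and 0.00218). Zfp518b, Zfp710 and Zfp975 also passed with slide as a term, and Zfp367 and Zfp821 did not. Zfp821 lost its call in 14 of the alternatives run, and Zfp367 in 10. Genotype and sex cannot be told apart on these arrays, so the part of sex in these differences could not be tested. Slide is not balanced between the genotypes, and its part was not tested beyond the slide term. That term rests on KO PBS replicate 3 against replicates 1 and 2.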

How the results depend on the processing

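Counts of Zfp genes called after LPS in WT and KO stayed within 1.5 times under every alternative run over all members. With 1 array left out they were 65 to 82 higher and 86 to 114 lower in WT, and 75 to 100 and 69 to 88 in KO. Of all tested genes 30.9% to 36.3% were then called higher and 28.2% to 32.7% lower in WT. The shares in KO were 30.3% to 37.0% and 29.2% to 34.1%. The 100 brighter genes alone gave 35 and 26 in WT and 42 and 20 in KO. They gave 5 and 11 between the genotypes in PBS, 21 and 27 with LPS and 0 and 2 for the interaction. Fewer genes enter there by construction. Of all tested genes above the same level 43.7% and 27.8% were called in WT and 40.5% and 30.6% in KO. Between the genotypes the shares were 10.2% and 6.67% in PBS, 16.7% and 25.2% with LPS and 0.845% and 4.92% for the interaction. Scaling by the array median gave 4 higher for KO in PBS, 82 lower after LPS and 1 higher for the interaction, beside 20, 42 and 4 in the other direction. Of all tested genes 4.96%, 30.1% and 0.587% were called in those directions with that scaling, beside 6.48%, 13.0% and 3.41% in the other. Without the detection filter KO against WT in PBS gave 5 and 8 of 374 symbols, beside 3.61% and 2.61% of all symbols. Slide 1 alone gave 4 and 8, beside 5.21% and 2.97% of all tested genes. Slide as a term left 4 and 2 after LPS, beside 2.60% and 3.24% of all tested genes. With the replicate block the interaction gave 6 and 5, beside 2.27% and 5.30%. No other count moved by over 1.5 times. With 1 array left out KO against WT in PBS ranged from 1 to 12 and 7 to 25, after LPS from 42 to 68 and 32 to 64, and the interaction from 1 to 37 and 2 to 21. The 32 came without KO LPS replicate 1. Of all tested genes the shares then ranged from 4.18% to 9.76% and 2.73% to 9.66% in PBS. After LPS they ranged from 14.4% to 22.7% and 13.6% to 23.3%, and for the interaction from 0.346% to 9.52% and 2.34% to 11.5%.

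For KO against WT after LPS the sign turned with the mean over kept probes for Zfp410 (0.01) and Zfp467 (-0.35), and with slide as a term for Zfp219 (0.17), Zfp932 (-0.13) and Zfp609 (-0.01). The cause was not tested. Of role-list calls with LPS, that of Zfp64 in WT was lost under 13 alternatives, Zfp322a in WT under 8, and Zfp608 in WT and Zfp385a and Zfp318 in KO under 6 each. In PBS the calls of Zfp11, Zfp984, Zfp36l3 and Zfp850 were lost under 16, 15, 14 and 12. Normexp with its offset lessened the changes of dim genes, for example to -0.74 for Zfp760 and -0.53 for Zfp667 in WT and -0.56 for Zfp273, -0.51 for Zfp101 and -0.59 for Zfp882 in KO, all still called. Signal over background limits the dim genes: 47 of the 313 were not above background on all 12 arrays, and 3 arrays a group limit the precision.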
